A study of Mus musculus with 2 samples.

Results

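Beta-catenin is a protein with a double role in epithelium. At the cell membrane it ties E-cadherin to the cytoskeleton, and in the cytoplasm a destruction complex marks it for degradation unless a Wnt signal halts the complex, after which it enters the nucleus and drives genes with T cell factor. Because the complex acts on the protein, the amount of beta-catenin transcript is not a measure of the signal. In the prostate, E-cadherin joins the luminal cells that secrete and the basal cells beneath them.

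The 8 genes described here were chosen by name from this system, and all 8 were found among the 19320 features of the table. Ctnnb1 encodes beta-catenin. Cdh1 encodes E-cadherin. Apc and Axin1 encode the scaffolds of the destruction complex, and Gsk3b and Csnk1a1 encode its 2 kinases. Ctnnd1 encodes p120-catenin, which holds cadherin at the membrane, and Jup encodes plakoglobin, a close relative of beta-catenin in adherens junctions and desmosomes. In the RefSeq annotation of GRCm38.p6, Ctnnb1 lies on chromosome 9 at 120933400 to 120960507, Cdh1 on chromosome 8 at 106603350 to 106670247, Axin1 on chromosome 17 at 26131217 to 26195811 and Gsk3b on chromosome 16 at 38089001 to 38246084. Jup lies on chromosome 11 at 100368856 to 100397839, Ctnnd1 on chromosome 2 at 84587096 to 84658977, and Apc and Csnk1a1 lie on chromosome 18, at 34220297 to 34322190 and 61554236 to 61590320.

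Prostate tissue came from mice that carried a floxed human androgen receptor transgene (hARtg) and a reporter of membrane green fluorescent protein at the Rosa26 locus, both switched on by Osr1-Cre. Osr1 is active early in the urogenital sinus. The labels give 2 samples, 1 with adenocarcinoma of the prostate (PCa) and 1, from younger mice, with its intraepithelial precursor lesion (PIN). Both samples carried the transgene and neither group had a control without it, and each group was 1 library. The reporter is the feature named EGFP and the transgene the feature named ARQ, as judged from these names.

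The deposited table held 15742 cells, whose barcodes ended in 1 of 2 ways, and neither the labels nor the names tie an ending to PIN or PCa. The endings are called barcode set 1 (6332 cells, median of 17235 unique molecular identifiers, or UMIs, per cell) and barcode set 2 (9410 cells, median of 14824.5), and 67 barcodes occurred in both. Levels are UMIs of a gene per 1000000 UMIs (CPM), summed over the cells of a class in a set, and all intervals are 95% intervals that cover counting error only. With 1 library a group, no p-value can be given, and mouse, tissue and library cannot be told apart in a difference between the sets. A gene is said to pass the fold limit where it differed at least 1.5-fold. The share of features past this limit is given beside each count. Every class named below had at least 3 of its markers in 25% of its cells. Luminal-like cells numbered 2571 in set 1 and 7779 in set 2, basal-like cells 1702 and 361, cells like the proximal or urethral luminal epithelium 547 and 196, leukocyte-like cells 157 and 214, and endothelium-like cells 40 and 170.

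Cdh1 was an epithelial transcript in both sets. It reached 601 CPM in luminal-like, 634 in basal-like and 730 in proximal luminal-like cells of set 1. The order was the same in set 2, but the values there were 118 CPM in luminal-like, 492 in basal-like and 548 in proximal luminal-like cells. The luminal-like cells of set 2 were thus far below every other epithelial class. Leukocyte-like cells, which should largely lack Cdh1, held 87.7 CPM (interval 76.0 to 101) in set 1 and 17.1 (11.6 to 24.2) in set 2. In set 1, 7 of 8 luminal markers were also seen in 25% of these cells. The clusters led by Ccl5 (742 cells of set 1) and by Rgs1 (216) were left unnamed. They had 5 and 6 of 7 leukocyte markers in 25% of their set 1 cells, and held 34.1 and 32.1 CPM of Cdh1 there. Endothelium-like cells held 10.46 CPM, from 3 UMIs in 40 cells, in set 1 and 17.7 in set 2. A cluster led by Apod, Bgn and Ccl2, left unnamed since its cells were shallow although all 6 fibroblast markers were seen in it, held 67.9 and 23.0 CPM. The luminal-like level in set 2 stayed above all of these, as the intervals did not overlap (117 to 120 CPM in luminal-like cells of set 2).

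Ctnnb1 was not limited to epithelium. Its highest level was in endothelium-like cells, at 614 CPM (527 to 712) in set 1 and 779 (741 to 819) in set 2, cells that use another cadherin, encoded by Cdh5. Proximal luminal-like cells followed with 462 and 499 CPM, and basal-like cells with 427 and 469. The intervals of these 2 classes overlapped in set 2 (477 to 522 against 443 to 496) and did not overlap in set 1. Luminal-like cells held 385 CPM in set 1 and 277 in set 2, and leukocyte-like cells were lowest of the named classes with 156 and 180.

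Among the complex genes, the basal-like cells held the highest Axin1 of the named classes, at 78.1 CPM in set 1 and 63.5 in set 2. Csnk1a1 was highest in endothelium-like cells, at 603 and 425 CPM, ahead of basal-like cells at 384 and 359. Apc ran from 38.5 to 42.9 CPM in the 3 epithelial classes of set 1 and from 23.1 to 39.7 in those of set 2. In leukocyte-like cells of set 1 it was at 29.7 CPM (23.0 to 37.6). Gsk3b was highest in luminal-like cells among the epithelial classes of set 1, at 211 CPM, and lowest there among those of set 2, at 120.4. Jup was highest in basal-like cells of both sets, at 268 and 265 CPM, and was low in leukocyte-like cells, at 23.6 and 19.3. Ctnnd1 reached 14.8 and 26.4 CPM in leukocyte-like cells, and ran from 61.7 to 104.6 CPM in the epithelial classes.

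**Figure D1:**
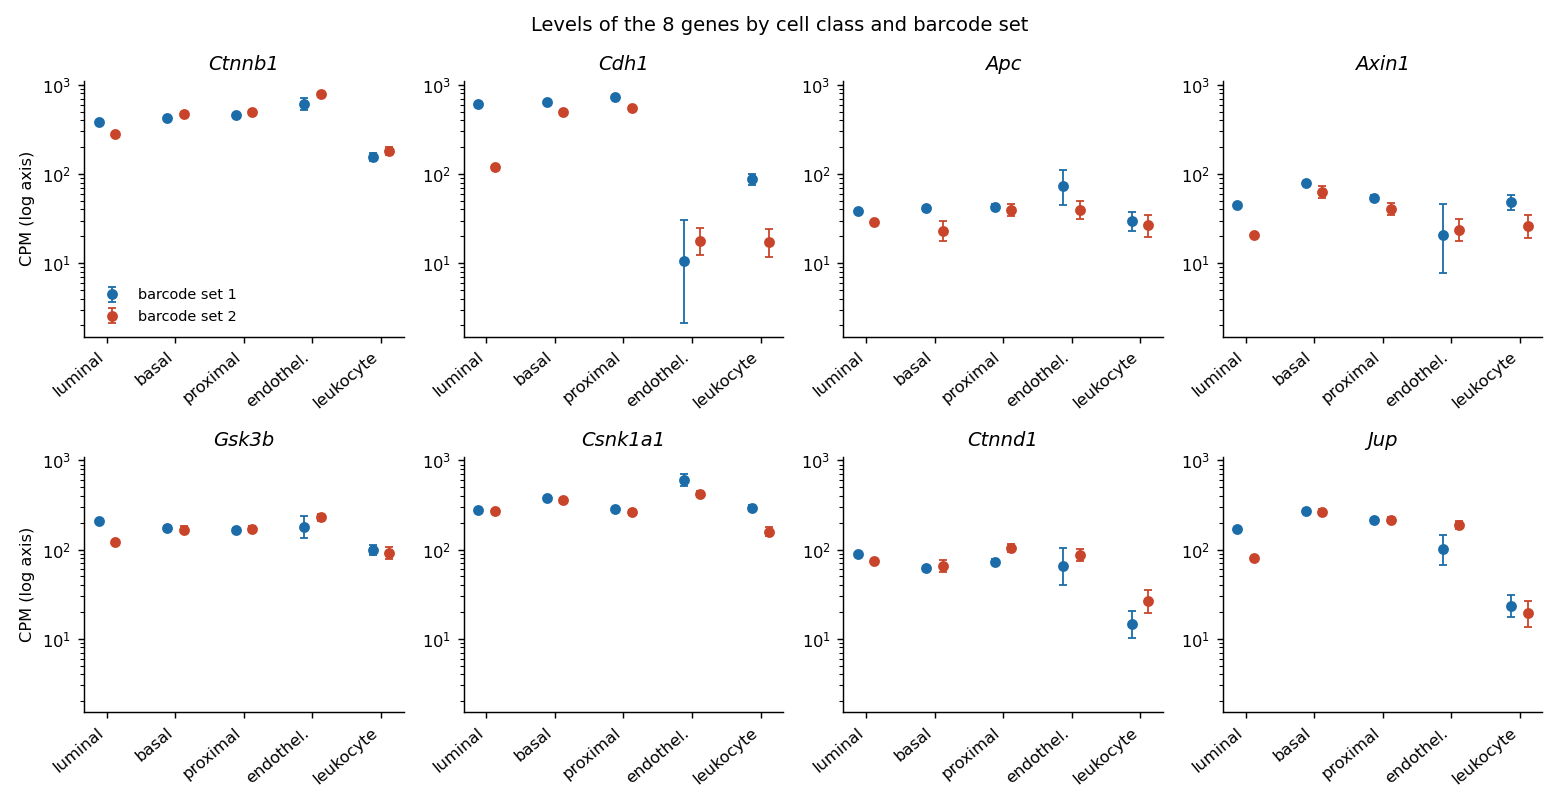
Level of each gene (CPM, log axis) in the luminal-like, basal-like, proximal or urethral luminal-like, endothelium-like and leukocyte-like cells of barcode set 1 (blue) and barcode set 2 (red), with bars for the 95% Poisson interval. Cdh1 in luminal-like cells was 601 CPM in set 1 and 118 in set 2, whereas Jup in basal-like cells was 268 and 265.

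The main contrast between the sets lay in luminal-like cells. All 8 genes had a lower level in set 2, each with an interval of the log2 ratio below 0, and 4 passed the fold limit, namely Cdh1, Axin1, Jup and Gsk3b. Of all 7222 features tested, 46.8% passed the limit in either direction and 27.9% did so with a lower level in set 2. The median log2 ratio was -0.64 over the 8 genes and -0.15 over all features. With all ratios centred on that median, 22.4% of features passed with a lower level and 23.3% with a higher one, in place of 27.9% and 18.9%, and the same count of 4 members passed. These cells were not the same kinds in both sets. Most luminal-like cells of set 2 fell in epithelial clusters 0, 2, 3 and 4 of the later re-clustering and most of set 1 in clusters 5, 6 and 7.

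Cdh1 showed the largest difference of the 8 genes. Its log2 ratio of set 2 over set 1 was -2.34 (-2.37 to -2.32), and 4.03% of all features tested had a lower one. With each cell thinned to 3000 UMIs, at least 1 Cdh1 UMI was seen in 76.2% (74.5 to 77.9) of luminal-like cells in set 1 and in 25.6% (24.6 to 26.5) in set 2. The unthinned shares were 98.3% and 70.0%, at median depths of 29090 and 16654 UMIs. The thinned background in leukocyte-like cells was 10.4% and 3.83%. Both sets thus held Cdh1 above background, with a lower share in set 2.

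Axin1 was at 45.2 CPM in set 1 and 20.4 in set 2, a log2 ratio of -1.15 (-1.21 to -1.08). Jup was at 170.2 and 81.5 CPM, a ratio of -1.06 (-1.10 to -1.03). Gsk3b was at 211 and 120.4 CPM, a ratio of -0.81 (-0.84 to -0.78). These 3 genes were thus lower past the limit, while the other members lay within it. The ratio was -0.47 for Ctnnb1, -0.41 for Apc and -0.25 for Ctnnd1. For Csnk1a1 it was -0.05 (-0.07 to -0.02), the smallest of the 8.

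Of the members past the limit, Jup and Gsk3b have an entry in the RefSeq promoter table of GRCm38.p6. The bases of these windows that lie before each gene are shown as upstream sequence. Whether they regulate the genes in these cells was not tested. Searched on both strands over 250 bases, neither window held the E-box CACCTG, which factors of the Snail and Zeb families bind, nor the T cell factor motif CTTTGAT. The E-box was present in 17.2% and the T cell factor motif in 3.21% of all 32851 windows of this length. No letters are in capitals since no motif was found. Jup lies on the minus strand (chr11:100397840-100398040, 201 bases) and Gsk3b on the plus strand (chr16:38088751-38089000, 250 bases).
Jup: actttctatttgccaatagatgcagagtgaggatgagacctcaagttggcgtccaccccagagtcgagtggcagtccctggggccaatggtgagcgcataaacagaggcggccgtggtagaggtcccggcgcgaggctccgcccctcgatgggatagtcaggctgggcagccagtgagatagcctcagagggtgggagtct
Gsk3b: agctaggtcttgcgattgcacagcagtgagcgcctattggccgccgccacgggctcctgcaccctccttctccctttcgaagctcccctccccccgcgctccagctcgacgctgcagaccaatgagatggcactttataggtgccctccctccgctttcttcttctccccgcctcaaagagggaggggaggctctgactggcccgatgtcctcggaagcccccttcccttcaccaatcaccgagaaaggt

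Genes that partner with these members gave a mixed picture. Of 15 junction partners, 14 were in the table and 8 were tested in luminal-like cells. Of these, 7 were lower in set 2 past the limit and none was higher, with a median log2 ratio of -0.97, beside 27.9% of all features lower and 18.9% higher. Vcl, which encodes vinculin, was lowest at -1.73, followed by Dsc2, a desmosomal cadherin, at -1.61. The 2 highest were Ctnna1, which encodes alpha-catenin, at -0.66 and Pkp2, a desmosomal plaque protein, at -0.44. Of 24 regulators of the destruction complex, 17 were tested, with 3 higher and 2 lower past the limit and a median of -0.15, equal to that of all features. Axin2, a Wnt target that itself scaffolds the complex, was at 23.6 CPM in set 1 and 183 in set 2, a log2 ratio of 2.96. Bcl9l, a co-activator of beta-catenin, was at 0.86. Ctnnbip1, an inhibitor of beta-catenin, was at -1.03 and the Wnt co-receptor Lrp6 at -0.82. Axin2 and Axin1 therefore differed in opposite directions.

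Of 5 repressors of Cdh1, only Zeb2 reached 10 CPM in luminal-like cells. It was at 15.6 CPM in set 1 and 38.7 in set 2, a log2 ratio of 1.32 (1.23 to 1.40). Zeb2 is also a leukocyte transcript, and leukocyte-like cells held 319 and 688 CPM. The 7 leukocyte markers in luminal-like cells summed to 23.1 CPM in set 1 and 9.25 in set 2, with 0 of 7 in 25% of the cells and 0 at zero. Zeb1 was at 2.87 and 8.86 CPM, and Snai1, Snai2 and Twist1 were each below 2 CPM in luminal-like cells of both sets.

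Other measurements moved with the set in luminal-like cells. EGFP stood at 978 CPM in set 1 and 10178 in set 2, and ARQ at 160 and 1517. The 6 basal markers summed to 908 and 47.6 CPM, with 3 and 0 of 6 in 25% of the cells and 0 at zero. The part of free RNA in the difference of Cdh1 was not tested. The 8 genes were also compared between the sets within levels of EGFP, whose limits were set separately in each set. This split does not address free RNA.

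EGFP levels were set within each set from leukocyte-like cells, where the reporter was taken as background. Cells at or below the leukocyte median of their set were EGFP-low, cells above its 95th percentile EGFP-high and cells between them EGFP-mid. The limits were 0 and 1.85 EGFP UMIs per 10000 in set 1 and 3.099 and 37.7 in set 2, so that the same word stands for different amounts in the sets. In set 1, 1233 luminal-like cells were EGFP-low, 854 EGFP-mid and 484 EGFP-high. In set 2 the numbers were 143, 212 and 7424.

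Among EGFP-high luminal-like cells, 3 of the 8 genes passed the limit between the sets, where 41.5% of features did. They were Cdh1 at -1.82 (-1.86 to -1.78), Axin1 at -0.80 (-0.93 to -0.67) and Jup at -0.72 (-0.78 to -0.65). Ctnnb1 was then at 0.07 (0.03 to 0.11), and Csnk1a1 and Ctnnd1 were also slightly higher in set 2, at 0.17 and 0.15. Among EGFP-low cells only Cdh1 passed, at -0.86 (-0.94 to -0.77), where 34.9% of features did. Gsk3b was there higher in set 2, at 0.13 (0.03 to 0.24). Cdh1 was thus lower in set 2 at each EGFP level, including the mid level at -1.22. The lower Ctnnb1 of set 2 was not seen among EGFP-high cells. The sets did not hold the same clusters at an EGFP level. Of the EGFP-low cells, 640 of 1233 in set 1 were in epithelial cluster 5 and 135 of 143 in set 2 in cluster 6. Of the EGFP-high cells, 200 of 484 in set 1 were in cluster 2, and 2104 of 7424 in set 2 in cluster 0. EGFP level and cluster were thus not separated here.

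**Figure D2:**
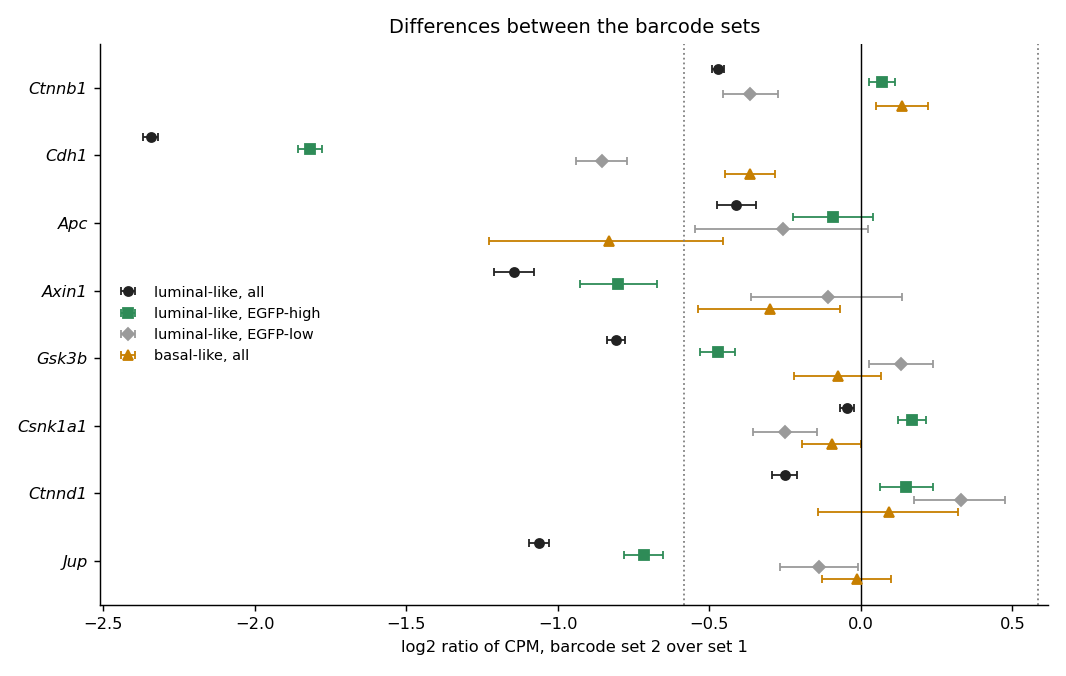
Log2 ratio of the level in barcode set 2 over that in set 1 for each gene, in all luminal-like cells (black), EGFP-high (green) and EGFP-low (grey) luminal-like cells and all basal-like cells (orange), with 95% counting intervals and dotted lines at 1.5-fold. Cdh1 was lower in set 2 in every row, from -2.34 in all luminal-like cells to -0.37 in basal-like cells.

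The luminal-like cells fell into epithelial clusters that differed in kind between the sets. Cdh1 was highest in cluster 5 of set 1 (led by Krt6a and Clu), at 849 CPM (840 to 858) over 1215 cells. It was at 520 CPM in cluster 6 of set 1 (led by 9530053A07Rik and Ren1 among others), 355 in cluster 2 (led by seminal vesicle secretory genes such as Svs5) and 282 in cluster 7 (led by Spink1). Luminal-like cells of set 2 in cluster 7 were lower than those of set 1, by a log2 ratio of -1.54. The clusters held nearly only by set 2 also lay below these levels of set 1. Cluster 0, led by Dpp6 and Gja1, held 96.1 CPM over 2141 cells. Cluster 4, led by defensin genes such as Defa22, held 102 CPM over 1660 cells and cluster 3, led by Mt4 and Gulo, held 81.8 CPM (79.0 to 84.7) over 1702 cells. The intervals of these 3 clusters were apart except for those of clusters 0 and 4 (92.9 to 99.4 and 99.02 to 105).

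Within the 4 luminal clusters that had at least 50 luminal-like cells of each set, Cdh1 was lower in set 2 in all 4. The log2 ratio was -1.89 in cluster 5, -1.54 in cluster 7, -1.33 in cluster 2 and -0.51 in cluster 6, with a mean of -1.32. Cdh1 was the only member with a mean past the limit. The means were -0.53 for Axin1, -0.47 for Jup, -0.25 for Ctnnb1 and -0.24 for Gsk3b. Single clusters passed the limit for Axin1 (-1.07 in cluster 5 and -0.79 in cluster 2) and Jup (-0.72 and -0.60 in the same clusters). Ctnnb1 (-0.93) and Gsk3b (-0.59) passed it in cluster 5 only. Cluster 6 differed least, where the other 7 genes lay between -0.36 and 0.10. Ctnnb1 did not keep a direction, at -0.93 in cluster 5 and 0.42 in cluster 7. The mean differences of Axin1, Jup and Gsk3b were thus smaller within clusters than over all luminal-like cells. That of Cdh1 passed the limit both ways, though cluster 6 alone lay within it. The clusters did not hold the EGFP level fixed. In cluster 5, EGFP-high, EGFP-mid and EGFP-low luminal-like cells numbered 80, 495 and 640 in set 1. Set 2 held 167 EGFP-high and 3 EGFP-mid cells there. In cluster 7 the numbers were 108, 172 and 155 in set 1 and 214, 11 and 1 in set 2.

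**Figure D3:**
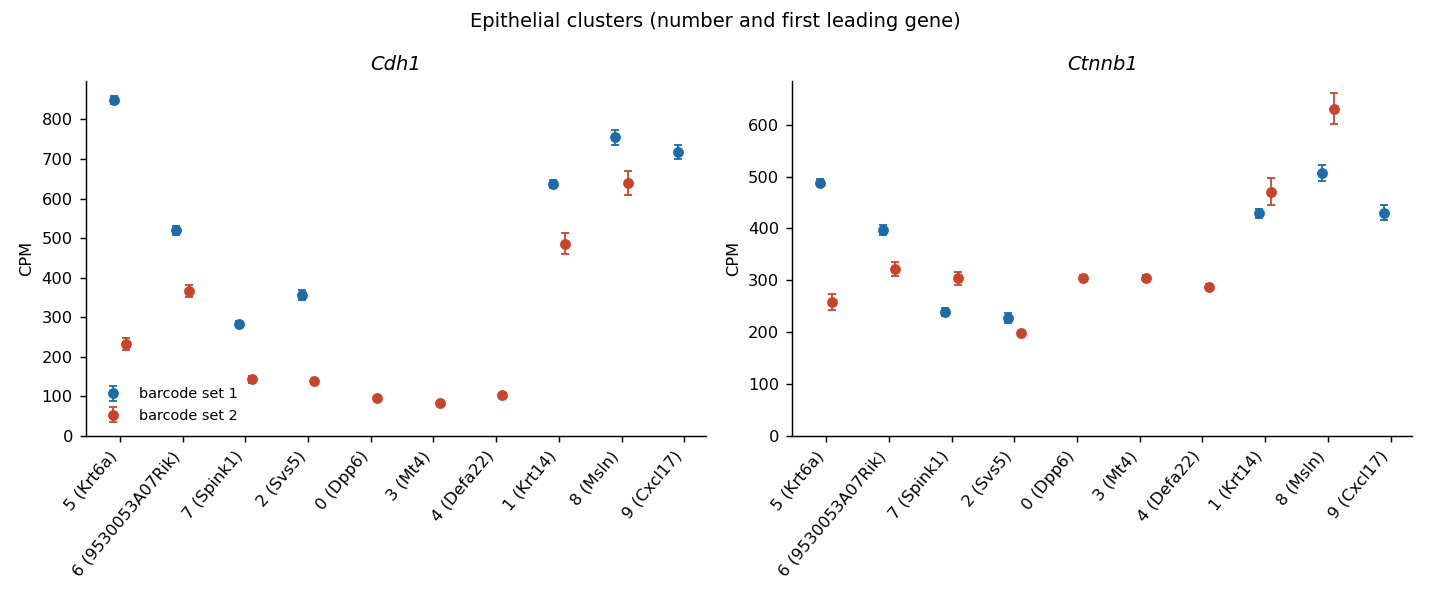
Level (CPM) of Cdh1 and Ctnnb1 in the epithelial clusters that had at least 50 cells of a set, for barcode set 1 (blue) and set 2 (red), with 95% Poisson intervals; clusters are given by number and first leading gene, with cluster 1 basal-like and clusters 8 and 9 proximal. Cdh1 in the clusters 0, 3 and 4 of set 2 lay between 81.8 and 102 CPM, while Ctnnb1 there lay between 288 and 305.

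Because both transcripts come from the same cells, the ratio of Ctnnb1 UMIs to Cdh1 UMIs does not depend on depth, and only its differences between groups are read. It was 0.641 (0.632 to 0.650) in luminal-like cells of set 1 and 2.34 (2.31 to 2.38) in those of set 2. Basal-like cells gave 0.674 and 0.953 and proximal luminal-like cells 0.632 and 0.911. All 3 epithelial classes of set 1 thus lay between 0.632 and 0.674, and the luminal-like cells of set 2 stood apart. By cluster, the ratio reached 3.72 (3.58 to 3.87) in cluster 3, 3.17 in cluster 0 and 2.82 in cluster 4 of set 2. Among clusters with at least 50 cells of each set, cluster 6 had the smallest difference, with 0.764 in set 1 and 0.880 in set 2. The ratio of Jup to Ctnnb1 was 0.442 in luminal-like cells of set 1 and 0.294 in set 2, against 0.627 and 0.566 in basal-like cells.

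**Figure D4:**
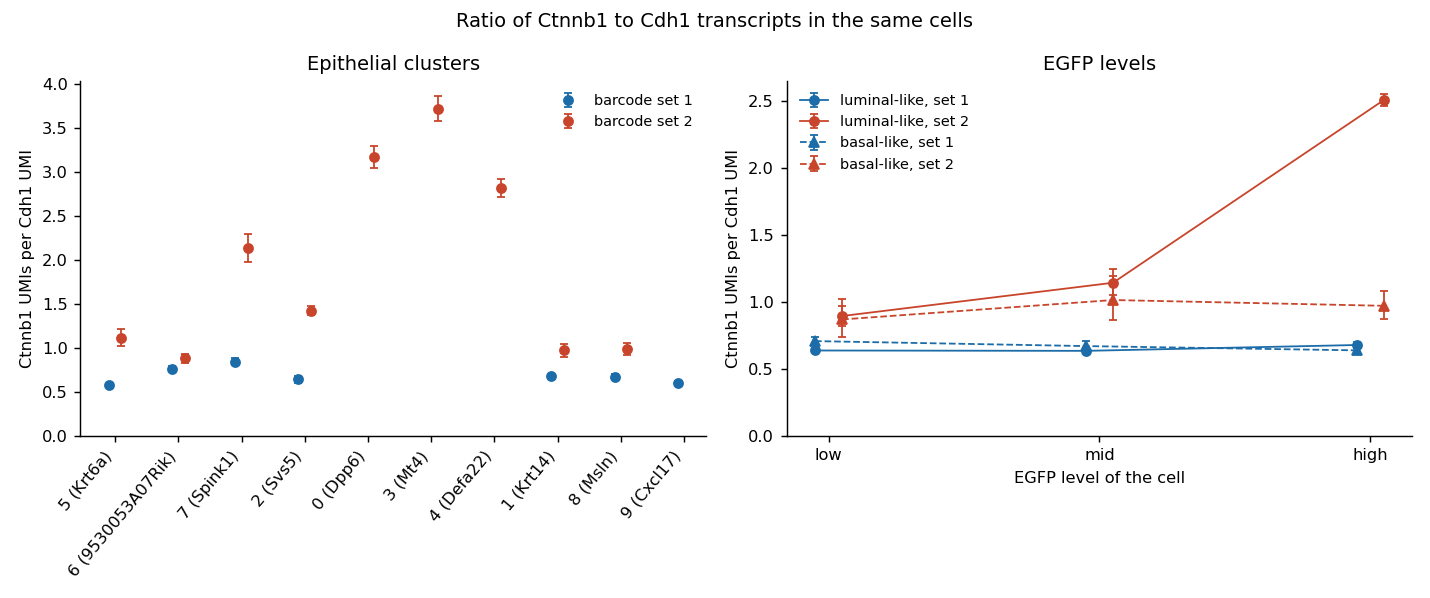
Ctnnb1 UMIs per Cdh1 UMI in epithelial clusters (left) and by EGFP level in luminal-like and basal-like cells (right) of barcode set 1 (blue) and set 2 (red), with exact binomial 95% intervals. The ratio was 2.51 in EGFP-high luminal-like cells of set 2 and lay between 0.634 and 0.677 over the 3 EGFP levels of luminal-like cells in set 1.

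In basal-like cells, 1 of the 8 genes passed the limit between the sets. This was Apc, with 41.0 CPM in set 1 and 23.1 in set 2 (912 and 61 UMIs) and a log2 ratio of -0.83 (-1.23 to -0.46), where 20.3% of 6542 features passed. Cdh1 was at -0.37 (-0.45 to -0.28) and Ctnnb1 at 0.14 (0.05 to 0.22). The counting interval of Jup, from -0.13 to 0.10, included 0 and lay within the 1.5-fold limit, and so did that of Gsk3b, from -0.22 to 0.07. Of the 10 junction partners tested, 5 were lower past the limit and none was higher, beside 14.1% of all features lower and 6.27% higher, with Pkp1 (-1.14) and Cdh3, which encodes P-cadherin (-1.04), lowest and Pkp2 (0.43) and Ctnna1 (0.01) highest. None of the 14 regulators of the destruction complex that were tested passed. Axin2, which was not among them as its summed level fell under the filter of 10 CPM, was at 5.48 CPM (4.55 to 6.55) in set 1 and 39.7 (32.5 to 48.0) in set 2, so that the intervals did not overlap. Leukocyte-like cells also differed, with 3.93 CPM of Axin2 in set 1 and 22.6 in set 2. The unnamed cluster led by Apod held 11.3 and 55.6 CPM. The part of free RNA in the basal-like difference of Axin2 was not tested. The median depth of basal-like cells was 10854 UMIs in set 1 and 5479 in set 2.

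Basal-like and luminal-like cells were then compared within each set, which share their luminal-like and basal-like cells with the comparisons above. In set 1, 2 of the 8 genes passed, where 51.8% of 7246 features did. Axin1 was higher in basal-like cells by 0.79 (0.71 to 0.87) and Jup by 0.65 (0.61 to 0.70). Cdh1 was nearly level, at 0.08 (0.05 to 0.10), and Ctnnb1 was at 0.15. In set 2, where 62.5% of 6899 features passed, 4 of the 8 did. The ratio was 2.06 (1.97 to 2.14) for Cdh1, 1.70 for Jup, 1.64 for Axin1 and 0.76 for Ctnnb1. Centred on the median of all features (-0.18 in set 1 and -0.26 in set 2), 3 and 6 members passed, and features passed with a higher basal level in 23.6% and 30.1%, against 16.9% and 22.2% without centring. The lower levels were 29.3% and 33.1% of features with centring and 34.9% and 40.2% without it.

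Several partners passed in the same direction in both sets. Perp, a desmosomal membrane protein, was higher in basal-like cells by 2.17 and 2.44, Dsp, which encodes desmoplakin, by 1.29 and 1.49, and Pkp3 by 0.96 and 1.84. The ubiquitin ligase genes Siah1a (1.20 and 0.97) and Rnf146 (0.76 and 0.93), the latter acting on axin, were also higher. Axin2 (-2.10 and -2.21), Pkp2 (-1.63 and -0.76) and Zeb2 (-3.44 and -4.68, the latter from 4 basal UMIs) were lower in basal-like cells.

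EGFP-high and EGFP-low cells of one set were compared next, as the reporter marks the recombined cells. EGFP-low basal-like cells also held the transgene transcript above its level in leukocyte-like cells, while EGFP-low luminal-like cells held about that level. In basal-like cells, ARQ was at 109 CPM in EGFP-low and 711 in EGFP-high cells of set 1, and at 349 and 817 in set 2. In luminal-like cells it was at 23.2 and 650 CPM in set 1, and at 157 and 1566 in set 2. Leukocyte-like cells held 20.5 CPM of ARQ in set 1 and 158 in set 2. In luminal-like cells of set 1, all 8 genes were lower in EGFP-high cells and 3 passed the limit, where 17.7% of 7227 features passed. Cdh1 was at 662 CPM in EGFP-low, 652 in EGFP-mid and 388 in EGFP-high cells, a log2 ratio of -0.77 (-0.81 to -0.73) of high over low. Ctnnb1 was at 421, 413 and 263 CPM, a ratio of -0.68, and Ctnnd1 was at 99.96, 91.4 and 66.2 CPM, a ratio of -0.59. The low and mid levels thus lay close together and the high level apart. The median of all features was -0.17, and centred on it 1 member passed, with 5.60% of features lower and 9.26% higher in place of 11.4% and 6.24%.

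These 3 calls did not hold within clusters. Of the 484 EGFP-high cells, 200 were in cluster 2 and 108 in cluster 7, whereas 640 of the 1233 EGFP-low cells were in cluster 5. Averaged over clusters 2, 5, 6 and 7, no member passed, with Cdh1 at -0.33, Ctnnb1 at -0.32 and Ctnnd1 at -0.01. With the sets clustered without integration, 297 of the 484 EGFP-high cells were classed as proximal or urethral luminal-like instead, and 0 members passed among the remaining cells (Cdh1 at -0.14), where 2.01% of features did.

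In luminal-like cells of set 2, 5 members were lower in EGFP-high cells past the limit, where 44.9% of 6866 features passed. Cdh1 was at 366 CPM in EGFP-low, 280 in EGFP-mid and 109.9 in EGFP-high cells, a ratio of -1.74 (-1.82 to -1.65). Axin1 was at 45.1, 29.5 and 19.7 CPM (-1.19), Gsk3b at 247, 178 and 117 (-1.08), Jup at 167, 139 and 78.5 (-1.09) and Ctnnd1 at 126, 117 and 73.5 (-0.77). For Cdh1, Axin1, Gsk3b and Jup the middle level thus lay between the others. Ctnnb1 differed less, with 327, 320 and 276 CPM and a ratio of -0.25 (-0.34 to -0.16), and Csnk1a1 was at 0.13 (0.02 to 0.23). Of the EGFP-low cells, 135 of 143 were in cluster 6, the only cluster with enough of both kinds, and within it no member passed (Cdh1 at -0.19, Axin1 at -0.46). In set 2 the EGFP level and the cluster cannot be told apart.

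Of the partners, Vcl (-0.59 in set 1 and -1.45 in set 2), Dsc2 (-1.09 and -0.81) and Ctnnbip1 (-0.62 and -1.41) were lower in EGFP-high luminal-like cells past the limit in both sets. Axin2 was the lowest of the 17 regulators tested in set 1, at -0.997, and the highest of 16 in set 2, at 3.74. Zeb2, the only repressor of Cdh1 tested, was lower in EGFP-high luminal-like cells of set 1 (-0.84) and higher in those of set 2 (0.83). Both values were past the limit. Whether the sets differed in Axin2 or Zeb2 was not tested.

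In basal-like cells, which also hold EGFP-high cells, no member passed the limit in either set. In set 1, 561 EGFP-high cells were set against 862 EGFP-low cells, and 11.7% of 6529 features passed. Cdh1 was at 619 and 634 CPM, a ratio of -0.04 (-0.09 to 0.02), and Jup, Axin1 and Gsk3b lay between -0.01 and 0.03. Ctnnb1 was at -0.18 (-0.25 to -0.12) and Apc, from 310 and 418 UMIs, at -0.21. In set 2, 159 EGFP-high cells were set against 95 EGFP-low cells, and 19.5% of 6521 features passed. Cdh1 was at 499 and 489 CPM, a ratio of 0.03, and its counting interval (-0.16 to 0.22) did not reach the ratio seen in luminal-like cells. As EGFP-low basal-like cells also held ARQ, cells with and without the transgene were not compared here. Apc had only 34 and 15 UMIs, with an interval from -0.66 to 1.24, so a 1.5-fold difference was not detectable at this depth.

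**Figure D5:**
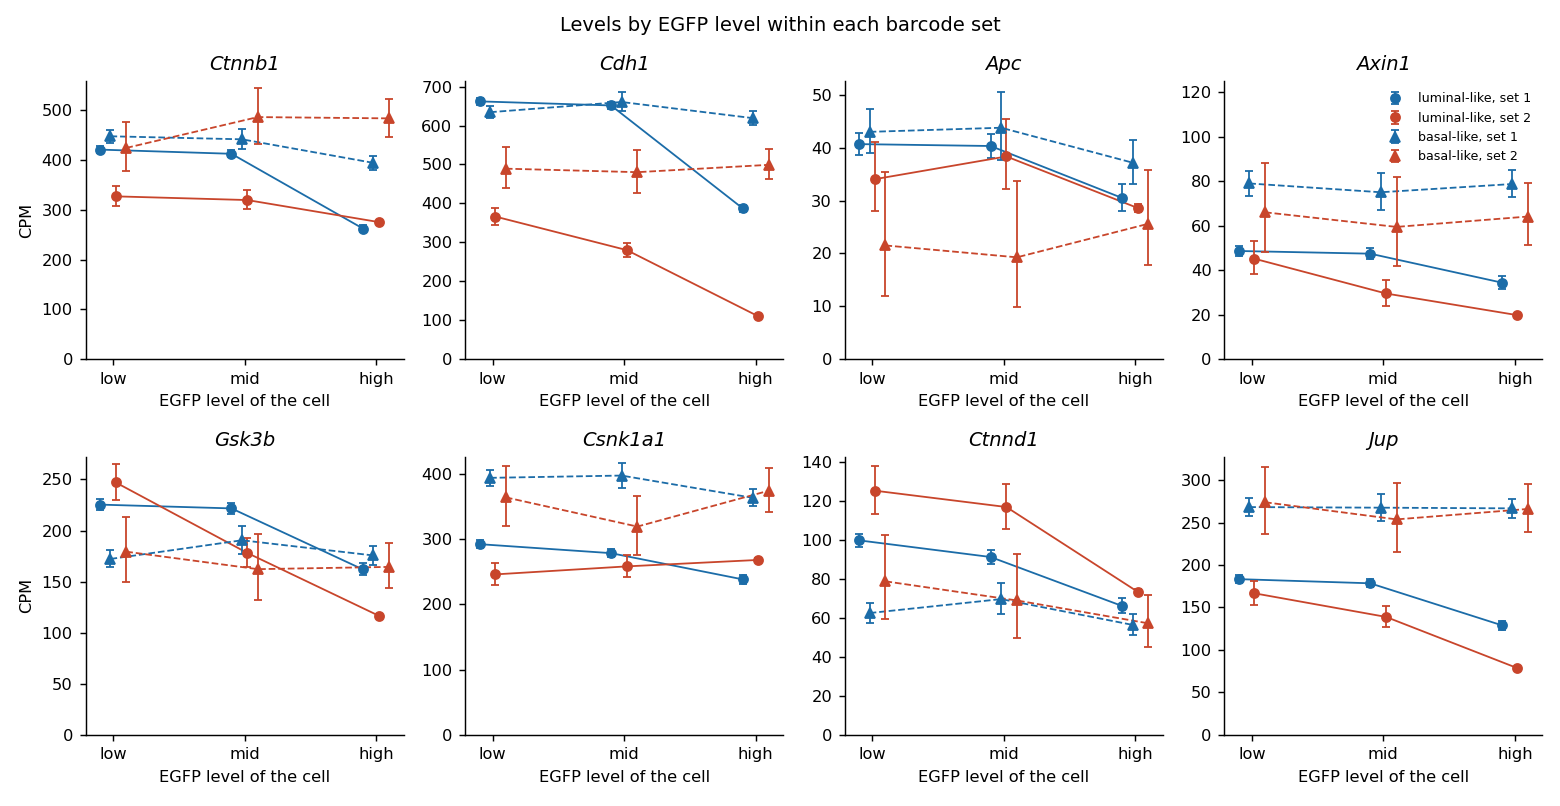
Level (CPM) of each gene in EGFP-low, EGFP-mid and EGFP-high luminal-like (circles, full lines) and basal-like cells (triangles, dashed lines) of barcode set 1 (blue) and set 2 (red), with 95% Poisson intervals. Cdh1 was at 366, 280 and 109.9 CPM along the levels of luminal-like cells in set 2, and at 489, 480 and 499 CPM in basal-like cells of the same set.

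In proximal luminal-like cells of set 1, Cdh1 was at 714 CPM in EGFP-low cells and 766 in EGFP-high cells, and Ctnnb1 at 489 and 424. EGFP-high cells of set 2 (94 cells) held 573 CPM of Cdh1, and the 46 EGFP-low cells were too few to compare.

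Across 14 combinations of class or cluster and set, the genes whose level was most like that of Cdh1 among 6417 features were Epcam (Pearson's r = 0.995), Cxadr (0.995) and Krt7 (0.988), all of them epithelial genes. Epcam, a cell adhesion molecule of epithelium, was at 2242 CPM in the luminal-like class of set 1 and 460.1 in that of set 2, and at 2636 and 1994 in basal-like cells. Cxadr, a tight junction protein and virus receptor, was at 316 and 61.4 CPM in luminal-like cells. Ctnnb1 was most like Tnk2 (0.919), Cav2 (0.917) and Efna1 (0.915). These points share 2 libraries and the split between epithelium and other cells, and the values describe likeness of level only.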

How the data were processed

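Prostate tissue of 1 PIN and 1 PCa mouse sample went through 10x Chromium single-cell RNA sequencing from the 3' end. Per the study's methods, the authors counted UMIs with Cell Ranger 3.1.0 against mm10 with the reporter and transgene sequences added and removed empty droplets, multiplets and dying cells. The deposited values were natural log values of 1 plus UMIs per 10000. They were turned back into UMIs, and 100% came out whole within a tolerance of 0.001. Column names showed no tissue, so cells were split by barcode ending only.

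Doublets (155 and 175 cells) were called with Scrublet in scanpy 1.11.5 at a score limit of 0.25, set after the automatic limit called 0. Cells were integrated and clustered with Seurat 5.3.0 in R 4.3.3 (20 dimensions, 30 principal components, resolution 0.5), leaving the 8 genes, their partners and the reporter out of the features. Classes were named from marker lists. Epithelial cells were clustered again with cell cycle scores regressed out. UMIs were summed per class and set. CPM has exact Poisson intervals, shares Clopper-Pearson intervals and ratios binomial intervals. Features needed 10 CPM over the summed UMIs of both sides, and each side needed 50 cells, or 20 for means over EGFP levels within clusters. No test across libraries was possible. Only the code for ratios and their intervals was checked on simulated data, drawn as Poisson sums without variation between cells or libraries. Promoters came from RefSeq on GRCm38.p6.

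All 8 members were tested in each comparison, and those that passed 1.5-fold are named, with some of the others. A partner is named where it passed 1.5-fold in the same direction in both sets, or as one of the 2 highest or 2 lowest of its list. Members, lists and markers were chosen with earlier results of these data known. Alternatives were the exclusion of features over 1% of UMIs, centring, equal weight of cells, 2-fold, minimum CPM, doublets kept, no integration, resolution, EGFP limits, thinning and within-cluster means. Comparisons between the sets within an EGFP level or within clusters, and those without cluster 2 and without shared barcodes, were added after the data were seen.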

Additional observations from a re-analysis of the deposited data

Results flagged for a closer look

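2 of the 8 genes differed in opposite directions in the 2 barcode sets, each with counting intervals that excluded 0. The difference between the sets was not tested. Gsk3b was lower in basal-like than in luminal-like cells of set 1 (log2 ratio -0.25) and higher in set 2 (0.48). Csnk1a1 was lower in EGFP-high than in EGFP-low luminal-like cells of set 1 (-0.29) and higher in set 2 (0.13).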

How the results depend on the processing

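No paired analysis was possible because there was only 1 library in a group. Of the counts of members past the limit, 72 alternatives stayed within 1.5 times of the reported count and 14 did not. Between the sets in luminal-like cells, 4 members passed, and 1 did in EGFP-low cells, where Gsk3b turned to 0.13, and 1 within clusters. In basal-like cells, 1 passed, and 0 did at 2-fold, at 50 CPM or more and in EGFP-high cells. For basal-like against luminal-like cells of set 1, 2 passed, and 0 did at 2-fold. For EGFP-high against EGFP-low luminal-like cells of set 1, 3 passed, and 1 did after centring, 0 at 2-fold, 0 without integration, where Ctnnd1 turned to 0.065, 0 within clusters and 1 without cluster 2. In set 2, 5 passed, and 0 did within clusters. In basal-like cells of set 2, 0 passed, and 1 did with every cell weighing the same and 2 with doublets kept. At 2-fold the features past the limit fell to 25.4% and 7.61% between the sets in luminal-like and basal-like cells, to 31.2% between basal-like and luminal-like cells of set 1, and to 5.35%, 24.8%, 4.07% and 6.06% for EGFP in luminal-like cells of sets 1 and 2 and basal-like cells of sets 1 and 2. Without cluster 2 it was 11% for luminal-like cells of set 1. A minimum of 1 CPM gave 31.4% between the sets in basal-like cells and 20.9% and 35.2% for EGFP in those of sets 1 and 2, the last 7.17% at 50 CPM. Of the values of single genes, 492 moved by less than their counting interval, 206 by more and 2 turned. The split at 5 or more EGFP UMIs against 0 was not run in set 2, where 1 side had under 50 cells. Depth limits Apc most, as basal-like cells of set 2 held 61 of its UMIs.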
